A study of Rattus norvegicus with 8 samples.

Results

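The collagens, laminins and interstitial matrix proteins measured here form a module of 64 genes, out of 14217 genes that the array represented with a probe set of their own. A gene was a member when the platform annotation gave its probe set a single symbol that is a collagen chain, a laminin chain, or 1 of a short list of other matrix proteins. The members were 41 collagen chains, 10 laminin chains and 13 other matrix proteins, covered by 93 probe sets. Each gene was represented by the probe set with the highest mean over all arrays. Of the short list, Thbs1 is not analysed here.

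Dams were given dibutyl phthalate (DBP), a plasticizer, at 50 mg/kg per day in corn oil or corn oil alone, by gavage once daily from gestational day 12 to gestational day 20. The fetuses were male Fischer 344 rats, and the labels name no transgene or deletion in either group. Whole testes were collected on gestational day 20, 6 h after the last dose, and their RNA was hybridised to 1 rat expression array per sample, with 4 vehicle (corn oil) and 4 DBP samples. The labels do not say whether the samples of a group came from separate dams, or how many fetuses a sample holds, so every p-value measures the spread between these samples only. Because whole testes were profiled, fewer cells of a type and less RNA per cell cannot be told apart.

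Collagens are triple helices of 3 chains. Fibrillar collagens form the ropes of the interstitium, network collagens such as type IV form the sheet of the basement membrane, and fibril-associated collagens decorate fibrils. Laminins are trimers of an alpha, a beta and a gamma chain and are the other backbone of the basement membrane, tied to the collagen IV sheet by nidogen. In the fetal testis, Sertoli cells and peritubular myoid cells lay down the basement membrane around the seminiferous cords, while the stroma between the cords deposits fibrillar collagens and small proteoglycans.

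All values below are log2 intensities of the authors' normalised table, and a change is the DBP mean minus the vehicle mean on that scale, with its standard error. Intensity depends on the probe as well as on the transcript, so levels of different genes are not compared. The Leydig cell markers averaged between 10.61 and 10.87 on the 8 arrays and the Sertoli cell markers between 10.51 and 10.71, so markers of the labelled tissue were present; of 8 germ cell markers only 2 were measured, and they averaged 6.90 to 7.14. The vehicle arrays correlated with each other at about 0.998, and the DBP arrays at 0.992 to 0.997. DBP replicates 3 and 4 stood apart. Their poly-A control RNAs, which are added in the laboratory, averaged 4.84 and 4.79, where the remaining 6 arrays had 6.46 to 7.17. The intensities of both were also less spread (SD over probe sets 2.19 and 2.18, against 2.23 to 2.25). The log2 difference between the 3′ and 5′ probe sets of GAPDH, a sign of RNA integrity, was 0.29 and 0.26 on these arrays. It was 0.14 to 0.20 on the other 6. The same difference for beta-actin did not set them apart, at 0.80 and 0.75 against 0.62 to 0.92. The labelled RNA integrity number was 8.6 and 8.7, against 8.7 to 8.8. Each result is therefore also given for DBP replicates 1 and 2 and for DBP replicates 3 and 4 against the same 4 vehicle arrays. The split was chosen with earlier results of these data known, and the labels name no batch.

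No member passed the test for DBP against vehicle, with 0 of 64 at a Benjamini-Hochberg adjusted p under 0.05 in limma's moderated test, where 1.07% of all 31042 probe sets passed. The lowest adjusted p among the members was 0.114. With DBP replicates 3 and 4 left out there were again 0 members past the threshold in limma (lowest adjusted p 0.0964), where 1.86% of all probe sets passed. With DBP replicates 1 and 2 left out there were 10, of which 8 were lower and 2 higher. Those 10 are 15.6% of the members, where 13.3% of all probe sets passed in the same fit, 2125 lower and 2004 higher. At an unadjusted p under 0.05 there were 12 members (5 higher and 7 lower), or 18.8%, against 18.2% of all probe sets (9.39% higher and 8.86% lower). The 4 DBP arrays did not overlap the 4 vehicle arrays for 6 members (4 higher and 2 lower), or 9.38%, against 10.9% of all probe sets (5.62% higher and 5.26% lower). Without regard to direction, the members' shares were near the background in each of these counts. With DBP replicates 1 and 2 left out, the members that passed were mostly lower, while all probe sets that passed split nearly evenly. Changes ran from -0.56 for Postn to 0.31 for Col4a4, and all 64 were below 1.5-fold. Of the members, 37 were lower and 27 higher in DBP, with a median change of -0.028, where the median over all probe sets was 0.015 and 45.1% of probe sets were lower. The 95% confidence interval of a member's change extended 0.19 to either side at the median, and 0.88 at most. The DBP arrays were more spread than the vehicle arrays, with a median SD of 0.16 against 0.077 for the members, and 0.12 against 0.076 for all probe sets.

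**Figure D1:**
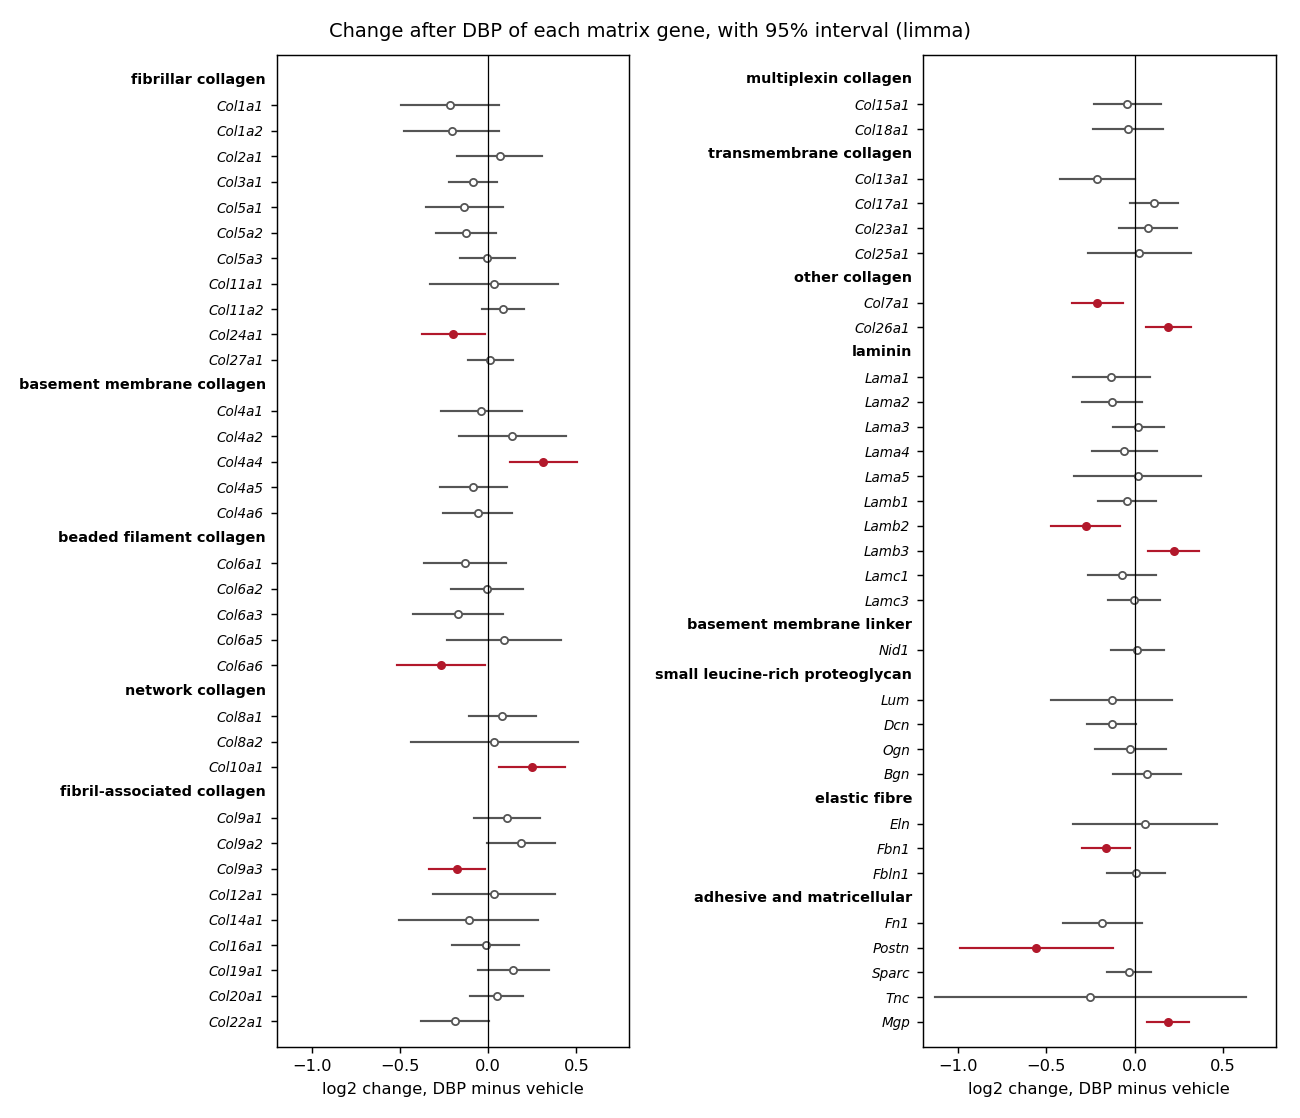
Change of each of the 64 members in DBP against vehicle (log2, horizontal axis), with points at the difference of 4 against 4 arrays and bars at the 95% confidence interval from limma, grouped by class; filled red points have an unadjusted p under 0.05. Postn is at -0.56 and Col4a4 at 0.31, and 12 of the 64 are red while none passed after adjustment.

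The direction of a member's change went with how bright its probe set was. Of the 31 members with a mean log2 intensity of 9 or more, 24 were lower in DBP (77.4%, median change -0.07), where 54.8% of all probe sets that bright were lower (median -0.01). Of the 15 members under 6, only 2 were lower and 13 were higher (median 0.08), where 31.8% of all probe sets that dim were lower (median 0.05). Between 6 and 9, 11 of 18 members were lower. In DBP replicates 3 and 4 against vehicle the medians were -0.17 for the bright members, against -0.04 for all bright probe sets, and 0.10 for the dim members, against 0.09 for all dim probe sets. The part that the lower spread of DBP replicates 3 and 4 plays in these values was not tested.

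The fibrillar collagens, the tensile fibres of the interstitium, had 11 measured chains, 7 lower and 4 higher in DBP (median -0.09), and none passed. Col1a1, the main chain of type I collagen, read 12.35, 12.67, 12.63 and 12.68 in vehicle and 12.36, 12.71, 12.08 and 12.31 in DBP replicates 1 to 4. Its partner chain Col1a2 read 12.40, 12.71, 12.59 and 12.75 in vehicle and 12.43, 12.74, 12.16 and 12.29 in DBP. Both chains were lowest in DBP replicates 3 and 4, and the groups overlapped, with vehicle replicate 1 about as low as DBP replicate 1. The changes were -0.22 ± 0.13 (SE) for Col1a1 and -0.21 ± 0.12 for Col1a2, with limma adjusted p = 0.376 and 0.384. In DBP replicates 3 and 4 both were at -0.39 against vehicle (limma adjusted p = 0.0638 and 0.0504). With these probe sets the chains of this heterotrimer kept together on every array: their deviations from their own vehicle means differed by at most 0.07. A second probe set of Col1a1 moved less, at -0.075 over all DBP arrays and -0.215 in replicates 3 and 4. That of Col1a2 was at -0.17 and -0.39.

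The promoter window of Col1a2 is shown because the probe sets representing it and Col1a1 moved together across the arrays. Only Col1a2 of the pair had a promoter window. RefSeq (assembly GRCr8) gave a window for 48 of the 64 members, each running from 250 bases before to 50 bases after the annotated start. The motifs searched on either strand of each window were the TATA box as TATAAA, the CCAAT box as CCAAT and the GC box as GGGCGG. Capitals mark them, also in the windows further on, and a motif on the other strand appears as its reverse complement (ATTGG or CCGCCC). No capitals of different motifs overlap. Of all 33469 RefSeq windows, 14.2% hold the TATA motif, 37.5% the CCAAT motif and 33.1% the GC motif.
Col1a2, chr4:33518307-33518606, plus strand: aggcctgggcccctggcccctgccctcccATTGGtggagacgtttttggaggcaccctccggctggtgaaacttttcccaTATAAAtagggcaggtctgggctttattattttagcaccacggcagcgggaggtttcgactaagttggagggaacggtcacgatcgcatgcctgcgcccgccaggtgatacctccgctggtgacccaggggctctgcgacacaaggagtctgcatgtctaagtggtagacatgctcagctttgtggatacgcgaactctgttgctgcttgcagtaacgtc
This window holds 1 TATA motif and 1 CCAAT motif on the other strand. A match describes the letters of the window and is no evidence of binding.

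Col3a1, the type III chain that forms thin reticular fibres, had a narrow range in vehicle, at 13.21, 13.31, 13.34 and 13.36, and read 13.24, 13.30, 13.13 and 13.20 in DBP. Its change was -0.09 ± 0.061 (limma adjusted p = 0.457). Col5a2, a chain of the type V collagen that starts fibrils and sets their width, read 11.98, 12.04, 11.95 and 12.02 in vehicle and 11.92, 12.06, 11.73 and 11.77 in DBP. DBP replicates 1 and 2 lay near the vehicle range, and replicates 3 and 4 below it. Against vehicle, replicates 3 and 4 fell by 0.25 (limma adjusted p = 0.0366). Col24a1, a fibrillar chain linked to type I fibrils in bone and cornea, read 6.89 to 7.05 in vehicle and 6.61 and 6.73 in DBP replicates 3 and 4, where it fell by 0.31 (limma adjusted p = 0.0279). Its change over all 4 DBP arrays was -0.20 (limma adjusted p = 0.242), with 3 of 4 DBP arrays below every vehicle array. The other chains of this class, of types II, V, XI and XXVII, were at -0.14 to 0.08.

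Against vehicle, 7 of 64 members passed in DBP replicates 3 and 4 (10.9%), where 14.7% of all probe sets passed (7.41% higher and 7.25% lower). Lower were Col5a2, Col24a1, Col14a1, Postn and Tnc, and higher were Col4a4 and Lamb3. Of the members, 46 were lower there, with a median of -0.12 against 0.02 over all probe sets. In DBP replicates 1 and 2, 0 of 64 passed against vehicle in limma, where 1.41% of all probe sets passed; 11 members had an unadjusted p under 0.05 (17.2%, against 12.9% of all probe sets), and 33 of 64 were lower (median -0.0025). These comparisons share the 4 vehicle arrays. The calls in replicates 3 and 4 depended on single arrays. Over the 8 fits that each left out 1 array, between 2 and 10 members passed. For these 8 fits the share of all probe sets is not given here. Col4a4 passed in all 8. Postn passed in 7, all but the fit without DBP replicate 4. Tnc and Col24a1 passed in 4, Col14a1 and Lamb3 in 3 and Col5a2 in 2. Without vehicle replicate 2, 3 or 4 only Col4a4 and Postn passed, and without DBP replicate 4 the 4 that passed were Col24a1, Col4a4, Col6a6 and Col7a1.

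**Figure D2:**
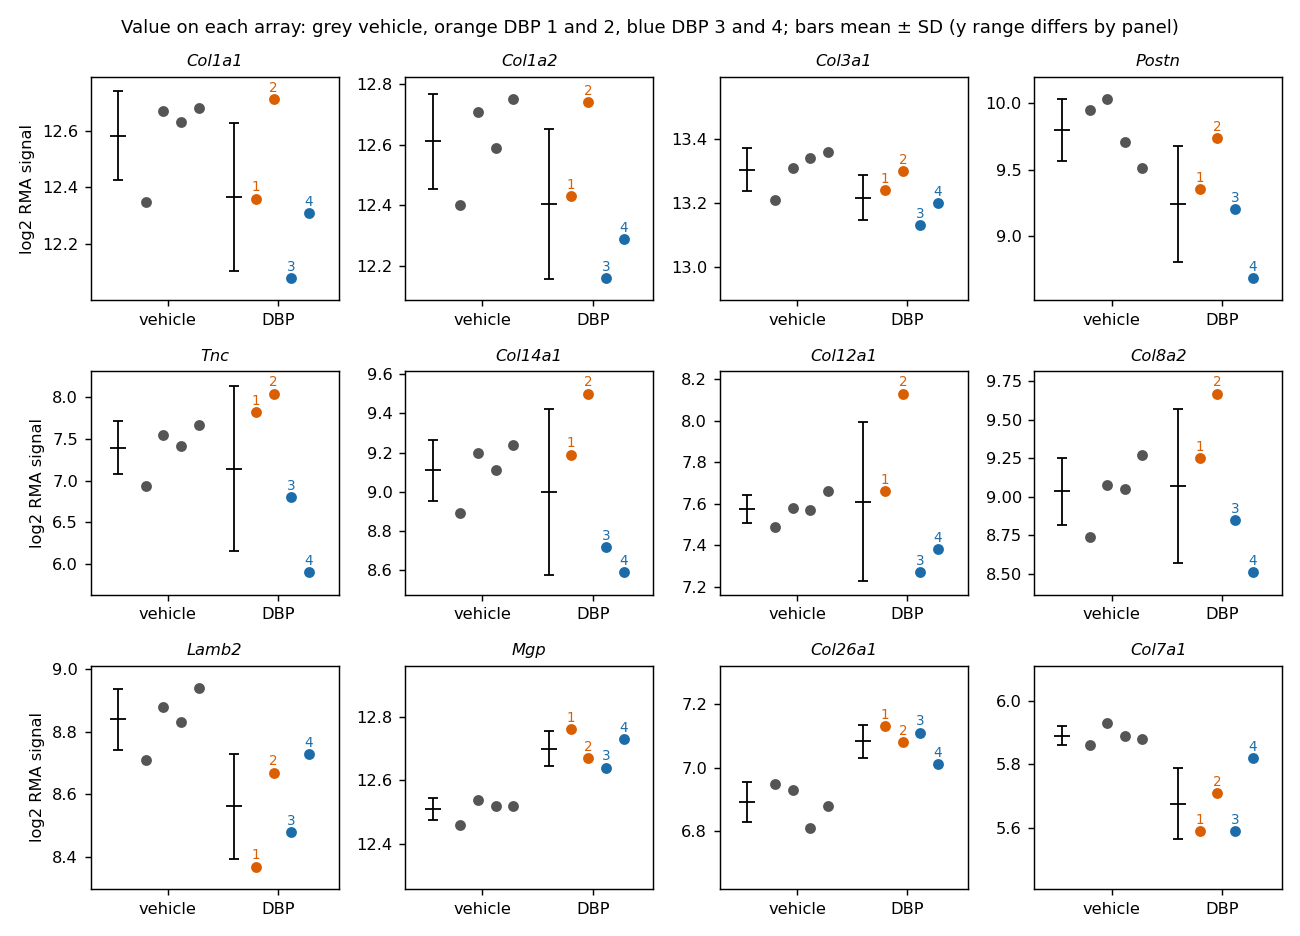
Log2 intensity (vertical axis, with its own range in each panel) of 12 members on the 8 arrays, with vehicle in grey, DBP replicates 1 and 2 in orange, DBP replicates 3 and 4 in blue, and bars at each group's mean ± SD (n = 4). Postn reads 8.68 on DBP replicate 4 against 9.51 to 10.03 in vehicle, and the 4 DBP values of Mgp, at 12.64 to 12.76, lie above the 4 vehicle values.

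The members that passed within the DBP group were Tnc (tenascin C, a large anti-adhesive glycoprotein of developing stroma), a network collagen and a pair of fibril-associated collagens. Between DBP replicates 3 and 4 and DBP replicates 1 and 2, 4 of 64 members passed (6.25%), all lower in replicates 3 and 4; of all probe sets 3.78% passed, and 2.45% passed as lower. Tnc read 6.94, 7.55, 7.41 and 7.66 in vehicle, 7.82 and 8.04 in DBP replicates 1 and 2, and 6.80 and 5.90 in DBP replicates 3 and 4. The vehicle values lay between the DBP pairs, which did not overlap them. Between the pairs Tnc fell by 1.58 ± 0.28 (95% confidence interval of the difference -2.21 to -0.95, 2.99-fold lower, limma adjusted p = 0.0225). Against vehicle, Tnc was at 0.54 in replicates 1 and 2 (limma adjusted p = 0.395) and fell by 1.04 in replicates 3 and 4 (limma adjusted p = 0.0245), a value that ran from -1.49 to -0.59 when single arrays were left out. The mean over all 4 DBP arrays, -0.25 ± 0.40 (limma adjusted p = 0.757), averages these opposite values.

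The promoter window of Tnc is shown as that of the member with the widest range over the DBP arrays.
Tnc, chr5:82476082-82476381, minus strand: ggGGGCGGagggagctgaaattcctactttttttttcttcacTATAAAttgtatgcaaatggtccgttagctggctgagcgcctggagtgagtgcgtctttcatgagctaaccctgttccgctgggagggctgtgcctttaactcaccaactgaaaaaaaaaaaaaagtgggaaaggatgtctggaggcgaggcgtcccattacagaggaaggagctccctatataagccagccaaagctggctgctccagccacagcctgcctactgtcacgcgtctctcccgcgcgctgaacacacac
It holds 1 TATA motif, which begins 208 bases before the start, and 1 GC motif, which begins 248 bases before it.

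Col14a1, a fibril-associated chain of growing connective tissue, read 8.89, 9.20, 9.11 and 9.24 in vehicle and 9.19, 9.50, 8.72 and 8.59 in DBP. Only DBP replicates 3 and 4 were below the vehicle range, and they differed from replicates 1 and 2 by -0.69 (95% confidence interval -0.99 to -0.39, limma adjusted p = 0.0272). Col12a1, a related fibril-associated chain of tendon and fascia, read 7.49 to 7.66 in vehicle, 7.66 and 8.13 in DBP replicates 1 and 2, and 7.27 and 7.38 in replicates 3 and 4. The difference was -0.57 (95% confidence interval -0.87 to -0.27, limma adjusted p = 0.0477). Col8a2, a network-forming chain of the subendothelium and cornea, read 8.74 to 9.27 in vehicle and 9.25, 9.67, 8.85 and 8.51 in DBP. Its difference was -0.78 (95% confidence interval -1.19 to -0.37, limma adjusted p = 0.0498). A second probe set of Col14a1 gave an adjusted p of 0.073 for this difference in limma, the dimmer probe sets of Col12a1 gave 0.306 and 0.924, and Tnc and Col8a2 have 1 probe set each.

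Of the 64 members, 48 were lower in DBP replicates 3 and 4 than in replicates 1 and 2 (median -0.11). DBP replicate 3 was the lowest of the 8 arrays for 28 members, against 17.1% of all probe sets, and DBP replicate 2 the highest for 28 members, against 12.0%. Leaving out 1 array at a time gave 0 to 6 members that passed between the pairs, with the shares of all probe sets not given here. There were 0 without DBP replicate 2 and 0 without DBP replicate 4, and only Tnc passed without vehicle replicate 3. Over the 8 fits Tnc and Col14a1 passed in 5 each, Col8a2 in 2 and Col12a1 in 1. The difference ran from -2.03 to -1.13 for Tnc, from -0.85 to -0.54 for Col14a1, from -0.99 to -0.57 for Col8a2 and from -0.81 to -0.34 for Col12a1. Marker genes of other cells also differed between the pairs, in both directions. Of the 6 erythroid markers, 4 (Alas2, Slc4a1, Hemgn and Epb42) were lower in replicates 3 and 4 with a limma adjusted p under 0.05, and the median difference was -0.70; their mean was 8.07 and 8.003 in replicates 1 and 2, 7.40 and 7.36 in replicates 3 and 4, and 7.33 to 7.71 in vehicle. Of the 5 mesothelial markers all were lower in replicates 3 and 4, 1 of them (Msln, limma adjusted p = 0.0458) past the threshold, with means of 7.23 and 7.21 against 7.002 and 6.47, and 6.69 to 7.05 in vehicle. Of the 6 adrenal markers 2 were lower and 4 higher in replicates 3 and 4 (median difference 0.0525). Cyp11b1, the only one of them that passed, was 5.87 and 5.86 in replicates 1 and 2 and 5.14 and 4.87 in replicates 3 and 4 (limma adjusted p = 0.0355). Of the 8 myoid cell markers 6 were lower in replicates 3 and 4 (median difference -0.16), and none passed. Higher there were 4 of 5 mesonephric duct, 6 of 7 skeletal muscle and 5 of 6 Sertoli cell markers (medians 0.25, 0.125 and 0.07). Lower were 5 of 8 macrophage, 5 of 7 endothelial and 5 of 8 Leydig cell markers (medians -0.13, -0.035 and -0.03). No marker of these lists passed between the pairs. The markers of the interstitial stroma averaged 10.62 and 10.70 in replicates 1 and 2 and 10.73 and 10.67 in replicates 3 and 4. Their median difference was -0.04. Of these 6 markers Dlk1 was at 0.465 between the pairs (limma adjusted p = 0.0529), and the others were at -0.11 to 0.035. The part of these markers, of the control RNAs and of the RNA integrity values in the matrix differences was not tested.

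**Figure D3:**
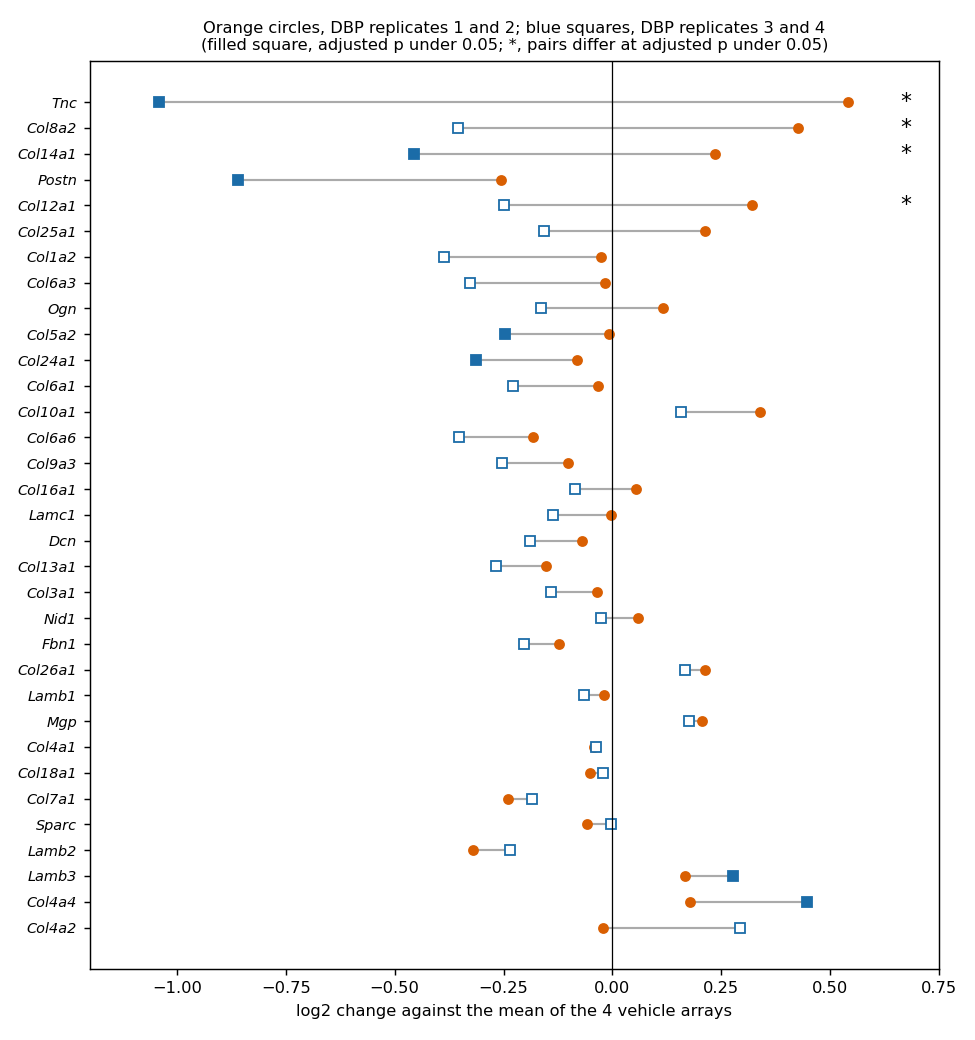
Change against the mean of the 4 vehicle arrays (log2, horizontal axis) of the 33 members named by rule, as an orange circle for DBP replicates 1 and 2 and a blue square for DBP replicates 3 and 4; a filled square has an adjusted p under 0.05 against vehicle, and a star marks a pair difference with an adjusted p under 0.05. Tnc lies at 0.54 and -1.04 and Postn at -0.26 and -0.86, and both symbols share the vehicle arrays.

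The basement membrane collagens had 5 measured chains, 3 lower and 2 higher (median -0.04). Col4a1 and Col4a2, the chains of the common type IV network, are divergent neighbours that share a promoter region, and their windows overlap by 176 bases on opposite strands, so the letters of the Col4a1 window show most of both.
Col4a1, chr16:84885347-84885646, plus strand: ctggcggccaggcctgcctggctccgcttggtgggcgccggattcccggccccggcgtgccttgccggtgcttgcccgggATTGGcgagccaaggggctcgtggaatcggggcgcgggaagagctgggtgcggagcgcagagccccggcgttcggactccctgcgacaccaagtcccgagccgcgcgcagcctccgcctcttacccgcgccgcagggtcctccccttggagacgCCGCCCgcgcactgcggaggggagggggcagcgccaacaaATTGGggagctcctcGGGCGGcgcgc
The window has no TATA motif, 2 CCAAT motifs on the other strand and 2 GC motifs, 1 on each strand. The Col4a2 window, at chr16:84885471-84885770 on the minus strand, likewise has no TATA motif.

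Col4a1 read 11.51, 11.63, 11.58 and 11.57 in vehicle and 11.36, 11.70, 11.30 and 11.77 in DBP. Col4a2 read 10.07, 10.36, 10.18 and 10.20 in vehicle and 9.97, 10.39, 10.26 and 10.73 in DBP. Both chains were highest on DBP replicate 4, and neither change passed: -0.04 ± 0.10 for Col4a1 (limma adjusted p = 0.861) and 0.14 ± 0.14 for Col4a2 (limma adjusted p = 0.610). The deviations of the 2 chains from their vehicle means differed by 0.33 on DBP replicates 3 and 4 and by at most 0.10 on the other arrays, with Col4a2 the higher. Among the chains of type VI collagen the deviations differed by 0.28 and 0.29 on these arrays and by at most 0.095 on the other 6.

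Col4a4, a type IV chain known from the mature glomerular basement membrane, had dim signals of 4.74, 4.70, 4.83 and 4.70 in vehicle and 4.96, 4.88, 5.27 and 5.11 in DBP. All 4 DBP arrays lay above all vehicle arrays. Its change of 0.31 ± 0.085 was the highest among the members, with the lowest adjusted p (limma, 0.114). It rose by 0.45 in DBP replicates 3 and 4 against vehicle (limma adjusted p = 0.00771), and was at 0.18 in replicates 1 and 2. Dim probe sets were mostly higher in DBP as a whole, as given above. Col4a5 and Col4a6, neighbours on the X chromosome that pair in other type IV networks, were at -0.09 and -0.06.

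**Figure D4:**
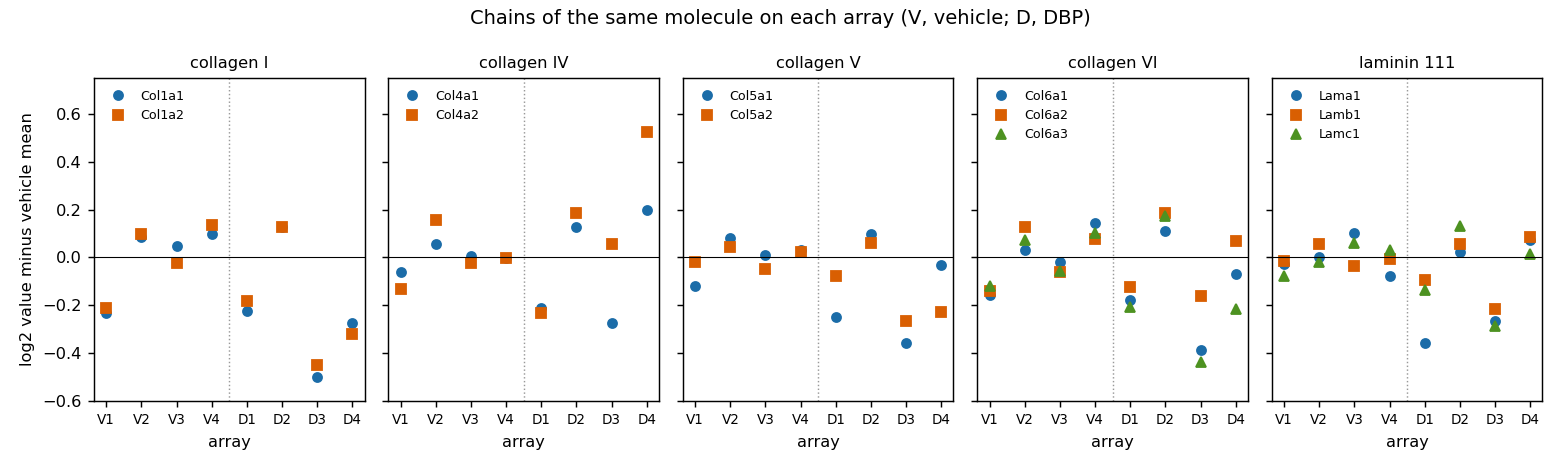
Deviation of each chain from its own vehicle mean (vertical axis, log2) on the 4 vehicle (V) and 4 DBP (D) arrays, 1 panel for each of 5 multi-chain collagens or laminins and 1 symbol per chain. The symbols of Col1a1 and Col1a2 lie within 0.07 of each other on every array, while those of Col4a1 and Col4a2 part by 0.33 on DBP replicates 3 and 4.

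Of the 10 laminin chains 7 were lower and 3 higher (median -0.05), and none passed. Lamb2, the beta chain of mature basement membranes and of the neuromuscular junction, read 8.71, 8.88, 8.83 and 8.94 in vehicle and 8.37, 8.67, 8.48 and 8.73 in DBP. DBP replicates 1, 2 and 3 were below every vehicle array and replicate 4 was just above the lowest. Its change was -0.28 ± 0.088 (limma adjusted p = 0.156). Lamb3, a beta chain of epithelial laminin, read 5.88, 5.89, 5.83 and 5.85 in vehicle and 6.05, 6.01, 6.03 and 6.25 in DBP, with all DBP arrays above all vehicle arrays. Its change was 0.22 ± 0.065 (limma adjusted p = 0.132), and it rose by 0.28 in DBP replicates 3 and 4 against vehicle (limma adjusted p = 0.0342), a call that was lost without DBP replicate 4 and without each of the 4 vehicle arrays.

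The laminin chains known from the seminiferous cord basement membrane were nearer to 0. Lama1 was at -0.13, Lamb1 at -0.04 and Lamc1 at -0.07, with limma adjusted p-values from 0.483 to 0.780. On 1 array, DBP replicate 1, the deviations of these chains differed by 0.26, with Lama1 the lowest. Lama2 and Lama4, alpha chains of muscle and vessel walls, were at -0.13 and -0.06. Lama5, the most widespread adult alpha chain, ranged from 6.56 to 7.41 in DBP and from 6.63 to 7.06 in vehicle. Nid1 (nidogen 1), the bridge between laminin and collagen IV, read 11.20 to 11.31 in vehicle and 11.18 to 11.43 in DBP, a change of 0.015 ± 0.068 (limma adjusted p = 0.924).

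The beaded filament collagens, the type VI chains that link cells to fibrils, had 5 members, 4 lower and 1 higher (median -0.13). Col6a6, an alternative alpha chain of the same family, read 6.55, 6.65, 6.41 and 6.50 in vehicle and 6.15, 6.54, 5.97 and 6.38 in DBP, so that DBP replicate 2 alone lay within the vehicle range. Its change was -0.27 ± 0.11 (limma adjusted p = 0.253). Col6a1 and Col6a3 were at -0.13 and -0.17 and Col6a2 at -0.0075. In DBP replicates 3 and 4 Col6a3 was at -0.33 against vehicle (limma adjusted p = 0.0805).

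The remaining collagens showed no common direction. The 9 fibril-associated chains were 4 lower and 5 higher (median 0.035). Col9a3, a chain of the type IX collagen that coats cartilage fibrils, read 7.65 to 7.74 in vehicle and 7.52, 7.64, 7.53 and 7.33 in DBP, all below vehicle, with a change of -0.18 ± 0.071 (limma adjusted p = 0.232). The partner chains Col9a1 and Col9a2 were at 0.11 and 0.19. Col7a1, the anchoring fibril collagen under epithelia, read 5.86 to 5.93 in vehicle and 5.59, 5.71, 5.59 and 5.82 in DBP, also without overlap (-0.21 ± 0.065, limma adjusted p = 0.144). Col26a1, a small collagen first described in testis and ovary, read 6.81 to 6.95 in vehicle and 7.01 to 7.13 in DBP, all above vehicle (0.19 ± 0.058, limma adjusted p = 0.141). Col10a1, the network collagen of hypertrophic cartilage, was dim, at 3.92 to 4.21 in vehicle and 4.21 to 4.48 in DBP (limma adjusted p = 0.178). The multiplexins Col15a1 and Col18a1, whose C-terminal fragments act on vessels, were both at -0.04. Among the 4 transmembrane collagens, 1 was lower (Col13a1, -0.21, limma adjusted p = 0.279) and 3 were higher.

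The small leucine-rich proteoglycans, which bind fibrils and set their spacing, had 4 members, 3 lower and 1 higher (median -0.08). Dcn (decorin) read 12.43, 12.45, 12.44 and 12.40 in vehicle and 12.41, 12.31, 12.31 and 12.17 in DBP, with 3 of 4 DBP arrays below all vehicle arrays (-0.13 ± 0.062, limma adjusted p = 0.296). Lum (lumican) was within 9.22 to 9.41 on 7 arrays and at 8.61 on DBP replicate 4. Bgn (biglycan) was at 0.07 and Ogn (osteoglycin) at -0.025. Of the elastic fibre genes, Fbn1 (fibrillin 1, the microfibril scaffold) read 11.21, 11.29, 11.26 and 11.29 in vehicle and 11.06, 11.22, 11.00 and 11.12 in DBP, with 1 DBP array inside the vehicle range (-0.16 ± 0.062, limma adjusted p = 0.218). Eln (elastin) read 8.58, 9.11, 9.01 and 9.21 in vehicle and 9.18, 9.47, 8.90 and 8.60 in DBP, with vehicle replicate 1 and DBP replicate 4 lowest. Fbln1 (fibulin 1) was at 0.010 ± 0.074.

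Among the adhesive and matricellular genes 4 were lower and 1 higher. Postn (periostin), a matricellular protein that promotes collagen cross-linking, read 9.95, 10.03, 9.71 and 9.51 in vehicle and 9.35, 9.74, 9.20 and 8.68 in DBP. DBP replicates 1, 3 and 4 were below every vehicle array and replicate 2 was inside the vehicle range. The change of -0.56 ± 0.20 (95% confidence interval -0.99 to -0.12, 1.47-fold lower) was the largest among the members, with limma adjusted p = 0.187. Postn fell by 0.86 in DBP replicates 3 and 4 against vehicle (1.81-fold lower, limma adjusted p = 0.0169) and was at -0.26 in replicates 1 and 2 (limma adjusted p = 0.633). The difference between the pairs did not pass (limma adjusted p = 0.126). Its promoter window is shown because it belongs to the member with the largest change.
Postn, chr2:140677811-140678110, plus strand: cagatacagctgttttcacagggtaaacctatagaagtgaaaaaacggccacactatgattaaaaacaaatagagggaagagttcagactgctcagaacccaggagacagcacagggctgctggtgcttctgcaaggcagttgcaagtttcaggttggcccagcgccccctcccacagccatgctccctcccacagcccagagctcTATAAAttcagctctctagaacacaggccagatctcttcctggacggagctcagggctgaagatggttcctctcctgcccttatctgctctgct
It holds 1 TATA motif, which begins 44 bases before the annotated start, and neither of the other motifs.

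Mgp (matrix Gla protein), an inhibitor of calcification, read 12.46, 12.54, 12.52 and 12.52 in vehicle and 12.76, 12.67, 12.64 and 12.73 in DBP, all 4 DBP arrays above all vehicle arrays. Its change was 0.19 ± 0.055 (1.14-fold higher, limma adjusted p = 0.125), and the DBP pairs were at 0.21 (replicates 1 and 2) and 0.18 (replicates 3 and 4). With an intensity trend and robust variance in limma, Mgp alone of the 64 members passed (adjusted p = 0.0226), where 1.49% of all probe sets passed. Sparc, a collagen-binding matricellular protein, read 11.53 to 11.67 in vehicle and 11.50 to 11.61 in DBP (-0.03 ± 0.057). Fn1 (fibronectin), the adhesive glycoprotein on which collagen fibrils assemble, read 10.51 to 10.69 in vehicle and 10.26, 10.72, 10.24 and 10.38 in DBP, with DBP replicate 2 the highest of all 8 arrays (-0.18 ± 0.10, limma adjusted p = 0.363).

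The 23 members with further probe sets had 29 of them. Of these 19 had the sign of the probe set used, 3 had an unadjusted p under 0.05 (Col4a6 -0.33, Nid1 -0.21 and Col6a2 0.20) and 0 passed for DBP against vehicle in limma. In DBP replicates 3 and 4 against vehicle 6 of the 29 passed, where 14.7% of all probe sets did. Lower were second probe sets of Col1a2 (-0.39, adjusted p = 0.039), Col4a6 (-0.56, adjusted p = 0.0143), Col6a3 (-0.81, adjusted p = 0.0187), Lamc1 (-0.40, adjusted p = 0.0455) and Nid1 (-0.36, adjusted p = 0.0123), and higher was that of Col6a2 (0.25, adjusted p = 0.0357), all in limma. In the same fit none of these 6 genes passed with the probe set that represents it; with DBP replicates 1 and 2 left out, those of Col1a2 and Col6a3 did.

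Of 124 further genes of the matrix pathway, in 5 lists, 1 passed for DBP against vehicle (0.806%, where 1.07% of all probe sets passed), and 11 higher and 11 lower genes (17.7%) were below an unadjusted p of 0.05. The gene that passed was Cd44, the hyaluronan receptor, which read 5.21, 5.27, 5.10 and 5.18 in vehicle and 5.54, 5.57, 5.38 and 5.59 in DBP. All DBP arrays were above all vehicle arrays, and it rose by 0.33 ± 0.066 (limma adjusted p = 0.0471). The call held in 1 of the 8 fits that left out an array, that without DBP replicate 3, with adjusted p-values up to 0.171 and changes of 0.30 to 0.38. A second Cd44 probe set was at 0.065 (limma adjusted p = 0.695).

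In the list of receptors for collagen, laminin and other matrix, which holds Cd44, 8 of 13 were higher and 5 lower, and 4 higher and 0 lower had an unadjusted p under 0.05. Over all probe sets 9.39% were higher and 8.86% lower at that level, a background that holds for each list here. Besides Cd44 these were the integrin chains Itga7 (0.24, limma adjusted p = 0.0804) and Itga3 (0.23, limma adjusted p = 0.115), which bind laminin, and the laminin receptor Bcam (0.23, limma adjusted p = 0.104). In the synthesis and processing list 17 of 25 genes were lower (median -0.065), and 1 higher and 4 lower had an unadjusted p under 0.05. Loxl2, a lysyl oxidase that cross-links collagen, read 8.13 to 8.57 in vehicle and 7.75 to 8.09 in DBP (-0.43 ± 0.11, limma adjusted p = 0.0992), and P4ha2, a prolyl hydroxylase subunit for collagen chains, was at -0.20 (limma adjusted p = 0.161). Of the 32 genes of matrix breakdown and its inhibitors 20 were higher (median 0.055), and the 2 with an unadjusted p under 0.05, Mmp15 and Adamts1, were lower (-0.18 and -0.15).

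Of the 12 other basement membrane genes 8 were lower (median -0.06). Tinagl1, a glycoprotein of basement membranes, read 6.75 to 7.08 in vehicle and 7.24 to 7.56 in DBP, without overlap (0.42 ± 0.091, limma adjusted p = 0.062). Smoc1, a calcium-binding protein of basement membranes, read 8.49 to 8.75 in vehicle and 8.23 to 8.44 in DBP, also without overlap (-0.27 ± 0.073, limma adjusted p = 0.116). Of the 42 other interstitial matrix genes 22 were lower and 20 higher, with Ccn3 at 0.28 (limma adjusted p = 0.121) and Emilin1, an elastic fibre glycoprotein, at -0.24 (limma adjusted p = 0.173).

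The split within the DBP group extended to these lists. Of the 124 genes, 15 passed in DBP replicates 3 and 4 against vehicle (12.1%, where 14.7% of all probe sets passed), 6 higher and 9 lower. In DBP replicates 1 and 2, 1 passed (Plat, a plasminogen activator, 0.37, limma adjusted p = 0.045). Between the pairs 7 passed (5.65%, where 3.78% of all probe sets passed), all lower in replicates 3 and 4: Lox, A2m, Plat, Efemp1, Thbs2, Abi3bp and Ddr2. Efemp1, a fibulin of elastic fibres, read 5.12 to 5.67 in vehicle, 5.56 and 5.90 in DBP replicates 1 and 2, and 4.80 and 4.51 in replicates 3 and 4 (limma adjusted p = 0.0186 between the pairs). Ddr2, a receptor kinase for fibrillar collagen, read 8.07 to 8.19, then 8.21 and 8.35, then 7.80 and 7.72 in the same order (limma adjusted p = 0.0151 between the pairs).

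**Figure D5:**
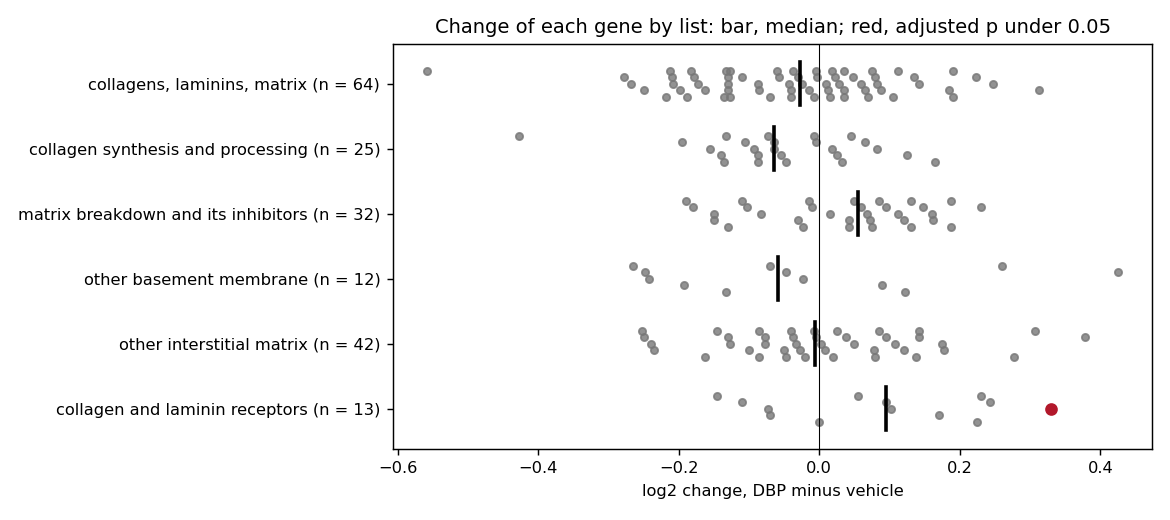
Change in DBP against vehicle (log2, horizontal axis) of the 64 members and of the 124 further genes, 1 point per gene and 1 row per list, with a bar at the list's median and red for an adjusted p under 0.05. The receptor list has a median of 0.095 and the synthesis and processing list of -0.065, and the single red point is Cd44.

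Of 74 measured marker genes of 12 cell types or neighbouring tissues, 2 passed for DBP against vehicle, where 1.07% of all probe sets passed. Of the 7 endothelial markers 4 were higher and 3 lower, and Plvap, of fenestrated capillaries, rose by 0.36 (limma adjusted p = 0.0471). Of the 8 Leydig cell markers 3 were higher and 5 lower. At an unadjusted p under 0.05 in limma, 1 was higher and 3 were lower, where 9.39% of all probe sets were higher and 8.86% lower. The higher 1 was Hsd3b1, a steroid dehydrogenase, at 0.17 (limma adjusted p = 0.163). Lower were Insl3 at -0.34, Vsnl1 at -0.70 and Lhcgr at -0.21 (limma adjusted p = 0.0732, 0.0888 and 0.17). The myoid cell markers averaged 8.39 to 8.64 in vehicle and 8.50 to 8.79 in DBP, with Acta2, smooth muscle actin, at 0.22 (limma adjusted p = 0.235). The macrophage markers averaged 6.43 to 6.55 in vehicle and 6.45 to 6.67 in DBP. Of these 8 markers 7 were higher, with Fcer1g at 0.27 (limma adjusted p = 0.0835). Of the 6 stroma markers 4 were lower, with Gli1 at -0.15. The lowest p in other lists belonged to Gata4 (Sertoli cell, -0.15), Sycp3 (germ cell, 0.31) and Hemgn (erythroid, 0.315). Likewise Pax8 (mesonephric duct) was at 0.255, Krt7 (mesothelium) at 0.185 and Actn3 (skeletal muscle) at 0.245. From Gli1 to Actn3 the limma adjusted p-values were 0.0972 to 0.334. Adrenal markers averaged 5.75 to 5.87 in vehicle and 5.61 to 5.78 in DBP, and Mrap among them, an accessory protein of the ACTH receptor, fell by 0.61 (limma adjusted p = 0.029). Of the 6 adrenal markers 3 were higher and 3 lower, with Th and Dbh, enzymes of catecholamine synthesis, at 0.27 and 0.22 (limma adjusted p = 0.115 and 0.225).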

How the data were processed

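The authors deposited a table of log2 intensities with 1 value per probe set and array, which the submitters' processing notes credit to RMA; its version and settings are not given in the sources used here. RMA summarises several probes per set after background correction and quantile normalisation, so levels are relative within the 8 arrays. After 57 control probe sets were left out, 31042 probe sets were fitted together with limma 3.58.1 in R 4.3.3 (lmFit, eBayes, no filter), once with 2 groups of 4 arrays and once with DBP replicates 1 and 2 apart from 3 and 4. P-values were adjusted by Benjamini-Hochberg over all 31042, and the threshold was 0.05. The fit was checked on simulated data with known changes. The platform annotation gave 20826 probe sets a single symbol. No pair of arrays held identical values, and precision is limited by 4 arrays per group.

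The members and all gene lists were chosen with earlier results of these data known. The rule for named members took every member with an unadjusted p under 0.05 for DBP against vehicle or an adjusted p under 0.05 in any 3-group contrast, and the 2 brightest of each class (1 in classes under 4 genes). In each further list it took genes past the threshold or the 2 with the lowest p, and in each marker list the 1 with the lowest p. Of the members 33 were named so, and the others given with values were chosen after their values were seen. Genes of the module's name pattern that were not matched (such as Col21a1, Col28a1, Col4a3, Col6a4 and Lamb4) are not analysed here. Alternatives covered normalisation, intensity filters, probe set choice, array weights, covariates, the replicate block and leaving out arrays. Leaving out a pair of DBP arrays was added after seeing the data.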

Additional observations from a re-analysis of the deposited data

Results flagged for a closer look

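In 146 groups of 4 arrays of named genes, 5 held an array whose gap to its nearest neighbour took up most of the group's range (Dixon's test at the 95% level, which chance meets in about 1 of 20 groups). Col1a1 read 12.35 on vehicle replicate 1 against 12.63 to 12.68 on the other vehicle arrays. Lama5 read 6.63 on the same array against 7.02 to 7.06. Lamb3 read 6.25 on DBP replicate 4 against 6.01 to 6.05 on the other DBP arrays. Fbln1 read 9.44 on vehicle replicate 4 against 9.37 to 9.38. Adamts1, a secreted protease of matrix proteoglycans, read 9.32 on DBP replicate 4 against 9.47 to 9.49.

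The difference between DBP replicates 3 and 4 and DBP replicates 1 and 2 was itself tested and passed for 4 members: -0.78 for Col8a2, -0.57 for Col12a1, -0.69 for Col14a1 and -1.58 for Tnc. The split follows no label of the study.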

How the results depend on the processing

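The count of members past the threshold for DBP against vehicle was 0 under every alternative except 2. It was 1 (Mgp) with an intensity trend and robust prior, where 1.49% of all probe sets passed. With DBP replicates 1 and 2 left out it was 10 (15.6%, where 13.3% of all probe sets passed). It was 0 in each fit that left out 1 array, and the lowest adjusted p in limma ranged from 0.0127 to 0.229 over the alternatives. The count of further pathway genes was 1 in the report and 17 with DBP replicates 1 and 2 left out (13.7%, against the same 13.3%). It was 2 with DBP replicates 3 and 4 left out, where 1.86% of all probe sets passed. With RNA integrity number as a covariate it was 2, where 1.19% of all probe sets passed. At an adjusted p under 0.1 it was 4, with the share of all probe sets not given here. It was 0 with the mean over probe sets, spike-in level as a covariate, unmoderated statistics or the probe set brightest in vehicle, and 0 to 1 without single arrays. Deviations from the group means correlated at -0.076 to 0.11 between same-numbered samples and at -0.19 to 0.17 between different-numbered ones. These values show no sign of pairing by replicate number but cannot exclude it. With the replicate block 0 members (lowest adjusted p 0.053) and 0 further genes passed in limma. With the trend and robust prior, the DBP pairs against vehicle gave 1 member (replicates 1 and 2) and 12 members (replicates 3 and 4); without single arrays the ranges were 0 to 1 and 2 to 10. Between the pairs 2 passed after quantile normalisation and 3 after shifting medians, and 0 to 6 without single arrays. For the counts of the pairs in these settings, the shares of all probe sets are not given here. In the report's own fit these shares were 1.41% for replicates 1 and 2, 14.7% for replicates 3 and 4 and 3.78% between the pairs. The causes were not tested.

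Of the named members' values, 662 kept their direction and side of the threshold, 10 newly passed and 46 changed sign. With DBP replicates 1 and 2 left out, Col8a2 was at -0.355, Col12a1 at -0.25, Col25a1 at -0.16 and Nid1 at -0.028. With DBP replicates 3 and 4 left out, Col4a2 was at -0.023, Col14a1 at 0.235, Col16a1 at 0.055, Ogn at 0.115 and Tnc at 0.54. With RNA integrity number as a covariate, Col4a1 was at 0.036, Col14a1 at 0.057, Col16a1 at 0.063, Col18a1 at 0.012, Lamb1 at 0.011, Lamc1 at 0.0025 and Tnc at 0.028. With spike-in level as a covariate, Col14a1 was at 0.11, Col16a1 at 0.027, Ogn at 0.071 and Tnc at 0.27. With the mean over probe sets, Col18a1 was at 0.024, Nid1 at -0.096 and Sparc at 0.019. Array weights put Ogn at 0.042, and Col16a1 was at 0.0075 after shifting medians and 0.016 after quantile normalisation. Leaving out 1 array at a time gave -0.12 to 0.038 for Col4a1, -0.165 to 0.22 for Col8a2, -0.14 to 0.15 for Col12a1, -0.28 to 0.027 for Col14a1, -0.082 to 0.043 for Col16a1, -0.11 to 0.023 for Col18a1, -0.11 to 0.14 for Col25a1, -0.085 to 0.015 for Lamb1, -0.14 to 0.0025 for Lamc1, -0.039 to 0.044 for Nid1, -0.095 to 0.062 for Ogn and -0.55 to 0.16 for Tnc.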
